A study of Drosophila melanogaster with 9 samples.

Results

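The comparison was between wing pouches of Drosophila melanogaster that carried either of 2 hairpin RNAs against the noncoding RNA CR32027. It used 6 of the 9 libraries of the series, 3 labelled CR32027-IR1 and 3 labelled CR32027-IR2, chosen by those labels. The 3 OreR libraries, from the same driver mothers crossed to males of the wild-type strain, were used only to give levels. The CR32027-IR1 larvae had fathers with VDRC transformant 26860, the CR32027-IR2 larvae had fathers with VDRC transformant 103512, and the OreR larvae had wild-type fathers. In all 3 genotypes the mothers were w1118 with Bx-GAL4 and UAS-dicer2 (Bloomington stock 25706), so the driver and the extra Dicer-2 were shared, and both hairpin genotypes also shared the expression of a hairpin. Bx-GAL4, also called MS1096-GAL4, drives the hairpin in the part of the disc kept here and not in every cell type of a disc. Male larvae grown at 25 °C were dissected at the wandering stage of the 3rd instar, 30 discs were taken for each genotype, and the nota were cut away. Total RNA was then extracted in triplicate. Each hairpin stock is 1 transgenic line, and the stocks differ in more than the hairpin sequence. The stock centre made its collections with different vectors and at different insertion sites, so the hairpin, its insertion and the fathers' background cannot be told apart.

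The wing imaginal disc is a sac of epithelium in the larva, and its pouch becomes the adult wing blade. Its growth and pattern rest on Hedgehog, Wingless, Dpp, Notch and EGF receptor signalling. Damage to the disc activates the Jun N-terminal kinase (JNK) cascade, which induces genes for cell death, matrix breakdown and repair. A hairpin RNA is cut by Dicer-2 into small RNAs that direct the cleavage of matching transcripts.

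Libraries held 25070343 to 36512316 reads, as recovered from the steps between values. Values were RPKM, which is reads scaled by gene length and by library depth. Testing was limited to the 7429 of 15682 genes that averaged 1 RPKM or more in these 6 libraries. A gene was called when limma gave a Benjamini-Hochberg adjusted p under 0.05 over all 7429, and every adjusted p below comes from that fit unless a left-out library or another setting is named beside it. Differences are CR32027-IR1 minus CR32027-IR2 in log2(RPKM + 1), given with their standard error, so a positive value means higher in the libraries labelled CR32027-IR1. This scale understates the change of genes with few RPKM. A gene could pass the level for testing through the genotype where it is high, and 63 of the called genes averaged under 1 RPKM in the other hairpin genotype. Means are given with the SD of 3 libraries, and single values are in the order of replicates 1, 2 and 3. Whether the 3 libraries of each genotype stem from different crosses is not stated, so the tests reflect only the spread among these libraries, and that spread may be technical. Replicates 2 and 3 labelled CR32027-IR1 lay further from their group's mean than the other libraries, with a median absolute deviation of 0.0845 and 0.0851 on the log2 scale, against 0.0412 to 0.0436 in the other 4. Replicate 2 labelled CR32027-IR1 also stood apart in heat-shock genes, as given with those genes below. Pouch genes were expressed in all libraries, with a summed level of 46.1 to 50.7 RPKM over 6 marker genes in the libraries labelled CR32027-IR1 and 48.3 to 54.7 in CR32027-IR2, and 0 of these 6 genes were called. Of the 6, 5 had differences below 0, with a median of -0.12.

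The targeted RNA was examined to check the labels. CR32027 (FBgn0052027) is transcribed from the plus strand of chromosome arm 3L, at 18841579 to 18842786 in the BDGP6 annotation, within the span of the minus-strand gene Indy. It had 4.46, 3.34 and 2.93 RPKM in the libraries labelled CR32027-IR1, against 0.408, 1.12 and 1.19 in those of CR32027-IR2 and 2.38, 3.3 and 2.53 in those of OreR. The libraries labelled CR32027-IR1 were the highest as a group, overlapped those of OreR, and did not overlap those of CR32027-IR2. These values rest on 164, 121 and 115 reads in the libraries labelled CR32027-IR1 and on 18, 40 and 36 reads in CR32027-IR2. The difference was 1.28 ± 0.20 (95% interval 0.81 to 1.75, adjusted p = 0.00871), and the call held whichever library was left out (largest adjusted p 0.0396). CR32027 averaged under 1 RPKM in CR32027-IR2 and passed the level for testing through the libraries labelled CR32027-IR1. With no filter on low values it was also called (adjusted p = 0.0278). An exact permutation test over the 6 libraries (two-sided) gave p = 0.1, the lowest value possible with 3 against 3. Reads counted for CR32027 were thus not low in the libraries labelled CR32027-IR1. Whether any of these reads came from the hairpin transgene was not tested. The level of CR32027 therefore does not bear out the label CR32027-IR1. Which hairpin these libraries carry, and with it every direction given here, rests on the label alone. Levels of transgene-linked genes are given below.

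Indy, a citrate transporter gene whose span contains CR32027 on the other strand, was also higher. It had 7.38, 8.28 and 6.66 RPKM in the libraries labelled CR32027-IR1, against 5.24, 4.99 and 5.33 in those of CR32027-IR2 and 5.75, 5.86 and 5.56 in those of OreR (log2 difference 0.45 ± 0.08, adjusted p = 0.014). Indy was not called when CR32027-IR1 replicate 1 (0.0591), CR32027-IR2 replicate 1 (0.0504) or CR32027-IR2 replicate 2 (0.0646) was left out. No source used here says whether reads were counted by strand, so reads of Indy and CR32027 may not have been kept apart. On the other side of Indy, the catalase gene Cat had 64.2 ± 13.8 RPKM in the libraries labelled CR32027-IR1, 63.5 ± 3.5 in those of CR32027-IR2 and 80.9 ± 5.4 in those of OreR and was not called (adjusted p = 0.979). The telomere-capping gene HipHop was not called either (0.20, adjusted p = 0.372). The plot of the target and transgene-linked genes shows these values by library.

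Genes whose reads can come from the transgenes or from their insertion sites differed between the hairpin genotypes. The eye pigment transporter gene w marks most fly transgenes, and all sons had their X chromosome from w1118 mothers. Its level was 385, 426 and 386 RPKM in the libraries labelled CR32027-IR1, against 586, 572 and 544 in those of CR32027-IR2 and 426, 456 and 454 in those of OreR (log2 difference -0.51 ± 0.06, adjusted p = 0.00391). CR32027-IR2 was the high group, and the libraries labelled CR32027-IR1 were lowest, with replicate 2 just under the lowest OreR library. The zinc finger gene tio lies near an insertion site used for one collection of the stock centre. It had 8.29, 9.12 and 7.23 RPKM in the libraries labelled CR32027-IR1, against 4.74, 3.2 and 3.64 in those of CR32027-IR2 and 6.91, 6.4 and 8.17 in those of OreR, and CR32027-IR2 was the low group (log2 difference 0.93 ± 0.13, adjusted p = 0.00579). The related gene tsh did not pass (0.10, adjusted p = 0.469). Hsp70Bb, whose promoter is part of common UAS vectors, had 312, 431 and 312 RPKM in the libraries labelled CR32027-IR1, against 163, 140.3 and 129 in those of CR32027-IR2 and 24.2, 27.4 and 24.8 in those of OreR. Both hairpin genotypes were above OreR, and the libraries labelled CR32027-IR1 were above those of CR32027-IR2 (log2 difference 1.27 ± 0.14, adjusted p = 0.00253). Dcr-2, which is also expressed from the driver stock, had 469.8 ± 78 RPKM in the libraries labelled CR32027-IR1, 535 ± 50.8 in those of CR32027-IR2 and 859 ± 89.8 in those of OreR and did not pass between the hairpin genotypes (95% interval of the difference -0.49 to 0.10, adjusted p = 0.311). Bx was not analysed here.

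**Figure D1:**
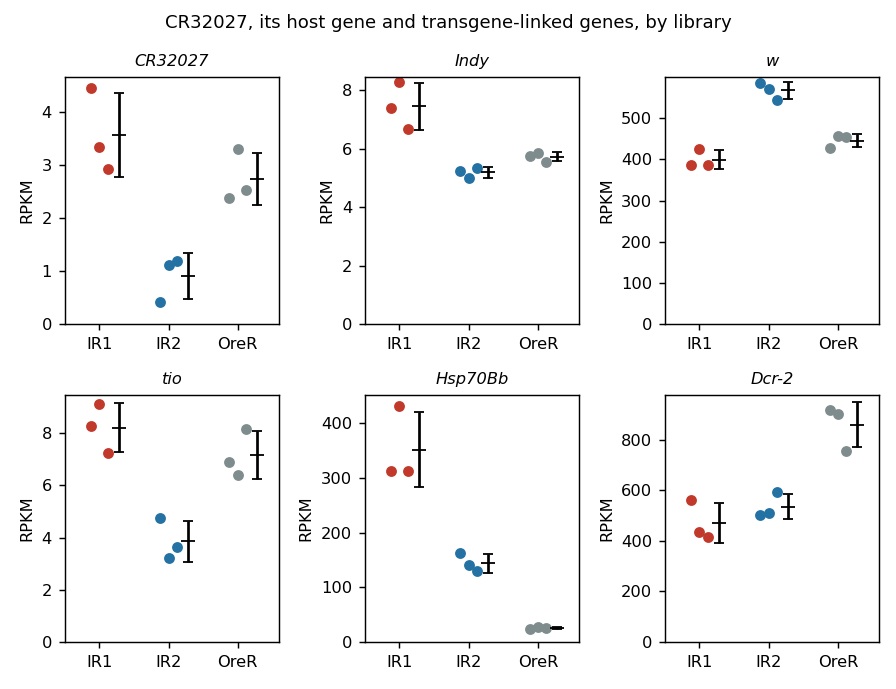
RPKM (vertical axes) of CR32027, Indy, w, tio, Hsp70Bb and Dcr-2 in each library, with CR32027-IR1 in red, CR32027-IR2 in blue and OreR in grey, and the mean with 1 SD as a bar beside each group. CR32027 averaged 3.57 RPKM in the libraries labelled CR32027-IR1, 0.905 in CR32027-IR2 and 2.74 in OreR, and the red and blue points overlap only for Dcr-2.

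Across the genome 1294 genes were called (17.4% of those tested), 685 of them higher (9.22%) and 609 lower (8.2%) in the libraries labelled CR32027-IR1. Most differences were small, with a median size of 0.35 on the log2 scale among called genes and 0.13 among all genes tested. There were 93 called genes that differed at least 2-fold on that scale (1.25%), 38 higher and 55 lower. All 1294 had libraries that did not overlap between the genotypes, as had 2928 genes of all tested (39.4%). Leaving out CR32027-IR1 replicate 1 gave 438 called genes and leaving out its replicate 2 gave 2006, while leaving out CR32027-IR2 replicate 1, 2 or 3 gave 540, 396 and 534. By a criterion added after the data were seen, 338 genes were called in all 6 fits that each left out 1 library, 133 higher and 205 lower, and 76 of the 93 genes with 2-fold differences were among them. The genes described below were so called unless a loss is given.

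Called genes lay on all large chromosome arms. Sons of all crosses took their X from the driver mothers and 1 set of autosomes and the Y from the differing fathers. On the X, 169 of 1211 tested genes were called (14.0%), 6 of them at least 2-fold (0.495%). On the autosomes, 1065 of 5841 were called (18.2%), 83 of them at least 2-fold (1.42%). Chromosome arms 2L, 2R, 3L and 3R had 19.3%, 18.0%, 18.6% and 17.6% of their tested genes called, and the small chromosome 4 had 6 of 57. These shares were not tested against each other.

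OreR levels, which are those of larvae with the driver and no hairpin, were set beside both hairpin genotypes. The OreR mean lay between those of the hairpin genotypes for 903 of the 1294 called genes, as for 3399 of all 7429. The OreR mean was nearer to CR32027-IR2 for 844 called genes and nearer to the libraries labelled CR32027-IR1 for 450, and over all genes tested it was nearer to CR32027-IR2 for 4368. It was nearer to CR32027-IR2 for 456 of the 685 genes called higher and for 388 of the 609 called lower. The genes with 2-fold differences were divided otherwise. OreR was nearer to the libraries labelled CR32027-IR1 for 37 of the 55 that were lower there, and nearer to CR32027-IR2 for 21 of the 38 that were higher. Genes were chosen for testing by the 6 hairpin libraries and not by OreR, which may in part have fixed these counts. Of the 55, 6 are the adjacent genes around Gr64a described below, some of which were not counted apart. Discs were pooled, so fewer cells of a type and less RNA per cell cannot be told apart in any of these genes.

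**Figure D2:**
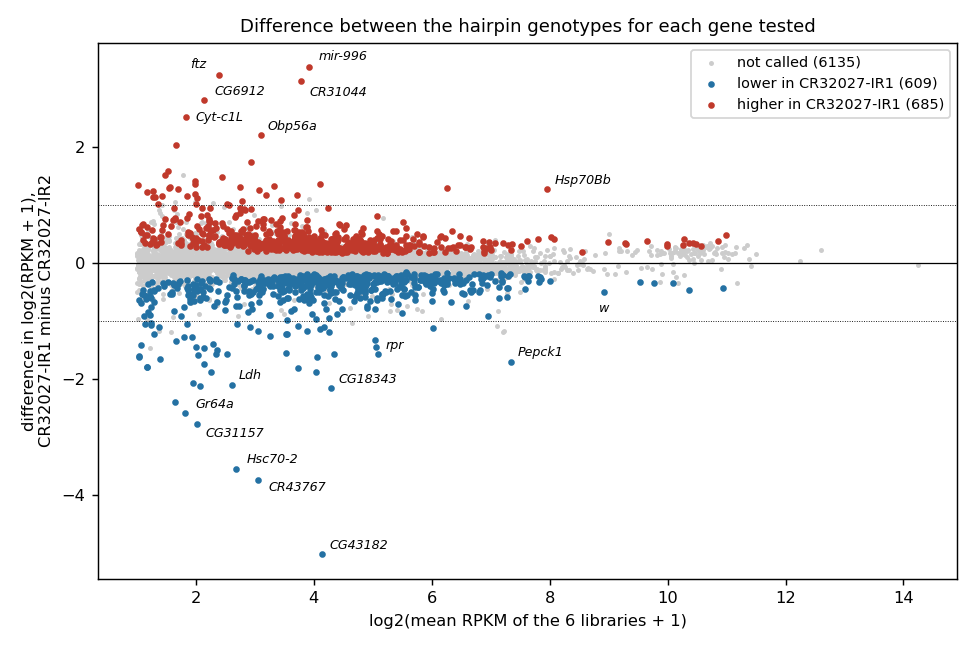
Difference in log2(RPKM + 1), CR32027-IR1 minus CR32027-IR2 (vertical axis), against the log2 of the mean RPKM of the 6 libraries plus 1 (horizontal axis), 1 point per gene tested, with called genes in red (685 higher) and blue (609 lower) and dotted lines at 2-fold. The genes with the largest differences in both directions have low to middling levels, and CR43767, Hsc70-2 and CG43182 reach below -3.

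The JNK cascade passes signals from a TNF receptor through a chain of kinases to the kinase bsk, which activates the AP-1 transcription factors Jun and Fos. Of 16 genes for its receptors, kinases and AP-1, 13 were tested, 6 were lower and 0 higher in the libraries labelled CR32027-IR1 (all genes tested: 8.2% lower and 9.22% higher), with a median difference of -0.21 beside 0.03 over all genes. The Jun kinase gene bsk had 25.8, 25.1 and 25.3 RPKM in the libraries labelled CR32027-IR1, against 34.9, 37.9 and 34.2 in those of CR32027-IR2 and 32.9, 32.9 and 34.9 in those of OreR (log2 difference -0.47 ± 0.05, adjusted p = 0.00268). The bsk levels of CR32027-IR2 overlapped those of OreR, and the libraries labelled CR32027-IR1 lay below both. The TNF receptor gene grnd had 49.2, 49.5 and 57.3 RPKM in the libraries labelled CR32027-IR1, against 74.1, 75.9 and 74.2 in those of CR32027-IR2 and 56.6, 54.9 and 57.3 in those of OreR (log2 difference -0.52 ± 0.07, adjusted p = 0.00416), and here CR32027-IR2 lay above both other genotypes. For the upstream kinase gene wnd the means were 10.5 ± 0.828 RPKM in the libraries labelled CR32027-IR1, 15 ± 1.19 in those of CR32027-IR2 and 10.9 ± 0.602 in those of OreR (log2 difference -0.47 ± 0.08, adjusted p = 0.0106). Mkk4, the gene of a kinase that phosphorylates JNK, was lower as well (-0.35, adjusted p = 0.0111), but not when CR32027-IR2 replicate 2 was left out (0.0527). Named after their values were seen, the upstream kinase gene msn (-0.32, adjusted p = 0.0334) and the Jun gene Jra (-0.29, adjusted p = 0.0111) completed the 6. With no filter on low values msn was not called (0.0698). The msn call held only when CR32027-IR1 replicate 2 was the library left out (otherwise 0.051 to 0.11), and Jra was not called when CR32027-IR1 replicate 1 (0.0577) or CR32027-IR2 replicate 2 (0.0556) was left out. Leaving out CR32027-IR2 replicate 2 left 3 genes of the list lower, and leaving out each other library left 4 to 6. Also named after their values were seen, the Fos gene kay (-0.21, adjusted p = 0.0697) and the JNK kinase gene hep (-0.03, adjusted p = 0.794) did not pass.

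JNK target and wound-response genes differed by more. Of 10 such genes tested, all 10 had differences below 0, and 4 were called lower and 0 higher (40% called, beside 17.4% of all genes). The median difference was -0.44, beside 0.03 over all genes. Mmp1, which encodes a matrix metalloproteinase that cuts basement membrane, had 5.24, 6.28 and 6.66 RPKM in the libraries labelled CR32027-IR1, against 16.5, 14.5 and 15.2 in those of CR32027-IR2 and 4.52, 4.43 and 4.76 in those of OreR (log2 difference -1.22 ± 0.09, adjusted p = 0.000537). CR32027-IR2 stood above both other genotypes. The JNK phosphatase gene puc, which is induced by JNK and restrains it, had 2.33, 2.51 and 2.1 RPKM in the libraries labelled CR32027-IR1, against 4.21, 4.03 and 3.94 in those of CR32027-IR2 and 1.78, 1.92 and 2.48 in those of OreR (log2 difference -0.61 ± 0.08, adjusted p = 0.00376), with the libraries labelled CR32027-IR1 among those of OreR. The pro-apoptotic gene rpr, whose product blocks the inhibitor of apoptosis Diap1, had 14, 15 and 19.6 RPKM in the libraries labelled CR32027-IR1, against 50.4, 53.3 and 45.8 in those of CR32027-IR2 and 21.9, 21.4 and 28.6 in those of OreR (log2 difference -1.58 ± 0.12, adjusted p = 0.000637). All libraries labelled CR32027-IR1 were below all OreR libraries, and all CR32027-IR2 libraries were above them. The transcription factor gene Ets21C had 0.278, 0.404 and 1.28 RPKM in the libraries labelled CR32027-IR1, against 1.92, 1.77 and 1.97 in those of CR32027-IR2 and 0.166, 0.209 and 0.23 in those of OreR. It was called (-0.85, adjusted p = 0.0356), but not when CR32027-IR1 replicate 1 or any CR32027-IR2 library was left out (0.0976 to 0.112) or with no filter on low values (0.0832). Ets21C averaged under 1 RPKM in the libraries labelled CR32027-IR1 and passed the level for testing through CR32027-IR2. Ilp8, a relaxin-like hormone released by damaged discs that delays pupariation, had 0, 0.0734 and 0.122 RPKM in the libraries labelled CR32027-IR1, against 0.712, 1.18 and 5.91 in those of CR32027-IR2 and 0.0693, 0.0322 and 0.0257 in those of OreR. Its highest value was CR32027-IR2 replicate 3, and it did not pass (-1.47, adjusted p = 0.075), though it did with a pseudocount of 0.1 (0.0218) or 0.5 (0.0479).

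Cell death and stress-response genes were compared next. Of 13 apoptosis genes tested 3 were lower and 1 higher (30.8% called, beside 17.4% of all genes), and the list's median difference was -0.04. Besides rpr, the bZIP transcription factor gene Xrp1, which acts in cell competition and stress, was lower. It had 39.5, 36.9 and 38.1 RPKM in the libraries labelled CR32027-IR1, against 54.2, 53.1 and 49.7 in those of CR32027-IR2 and 34.2, 40.7 and 42 in those of OreR (log2 difference -0.44 ± 0.05, adjusted p = 0.00324), and the libraries labelled CR32027-IR1 overlapped those of OreR. The caspase gene Strica (-0.36, adjusted p = 0.0439) was lower too, a call that held only when CR32027-IR1 replicate 2 was the library left out (otherwise 0.0796 to 0.132) and that was lost with no filter on low values (0.0863). Diap1, the inhibitor that rpr counters, was higher (0.19, adjusted p = 0.0273), but not when CR32027-IR1 replicate 1 or any CR32027-IR2 library was left out (0.0864 to 0.101). The related death gene hid, named after its values were seen, had 7.38 ± 0.831 RPKM in the libraries labelled CR32027-IR1, 8.91 ± 1.17 in those of CR32027-IR2 and 7.27 ± 1.15 in those of OreR and did not pass (adjusted p = 0.177). In the unfolded protein and integrated stress response list, 2 of 14 genes were lower and 0 higher (14.3% called). These were Xrp1 and PEK, the gene of a kinase that phosphorylates eIF2 alpha under stress of the endoplasmic reticulum. PEK had 21.4, 19.5 and 16 RPKM in the libraries labelled CR32027-IR1, against 31, 30.4 and 29.8 in those of CR32027-IR2 and 26.7, 26.7 and 28.3 in those of OreR (log2 difference -0.66 ± 0.10, adjusted p = 0.00694).

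Genes of sugar metabolism were examined next. Of 12 genes of glycolysis and lactate formation tested, 11 had differences below 0, with a median of -0.20 beside 0.03 over all genes. Of these 12, 4 were called lower and 0 higher (33.3% called, beside 17.4% of all genes). Lactate dehydrogenase (Ldh), which regenerates NAD by turning pyruvate into lactate, had 1.15, 1.87 and 0.941 RPKM in the libraries labelled CR32027-IR1, against 10.4, 8.35 and 7.92 in those of CR32027-IR2 and 2.66, 2.06 and 2.17 in those of OreR (log2 difference -2.10 ± 0.16, adjusted p = 0.000607). The CR32027-IR2 libraries were far above all others. Phosphofructokinase (Pfk), the committing step of glycolysis, had 11.2, 10.9 and 12.1 RPKM in the libraries labelled CR32027-IR1, against 18, 18.6 and 18.4 in those of CR32027-IR2 and 21.4, 20.6 and 20.9 in those of OreR (log2 difference -0.64 ± 0.06, adjusted p = 0.00108). Enolase (Eno) had 66.8, 80.3 and 65.7 RPKM in the libraries labelled CR32027-IR1, against 119.5, 122 and 115 in those of CR32027-IR2 and 115, 115 and 121 in those of OreR (log2 difference -0.74 ± 0.08, adjusted p = 0.00249). For Pfk and Eno the low group was the libraries labelled CR32027-IR1, while for Ldh the high group was CR32027-IR2. The fourth, the phosphoglycerate mutase gene Pglym78 (-0.23, adjusted p = 0.0312), was not called when CR32027-IR1 replicate 1 or any CR32027-IR2 library was left out (0.0793 to 0.119). Leaving out CR32027-IR1 replicate 3 gave 7 lower genes. Named after their values were seen, Tpi (-0.23, adjusted p = 0.101) and Gapdh2 (-0.17, adjusted p = 0.1) had libraries that did not overlap but were not called.

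Among 13 insulin and growth genes tested, ImpL2 was lower and 0 were higher (7.69% called, beside 17.4% of all genes). ImpL2 encodes a secreted protein that binds insulin-like peptides and restrains insulin signalling. It had 1.67, 1.75 and 1.26 RPKM in the libraries labelled CR32027-IR1, against 6.02, 6.65 and 7.14 in those of CR32027-IR2 and 2.02, 1.52 and 1.63 in those of OreR (log2 difference -1.57 ± 0.10, adjusted p = 0.000278), and the libraries labelled CR32027-IR1 overlapped those of OreR. The translation inhibitor gene Thor, a target of the insulin pathway named after its values were seen, did not pass (0.11, adjusted p = 0.772). The gluconeogenesis gene Pepck1, also named after its values were seen, had 83.1, 127 and 36.2 RPKM in the libraries labelled CR32027-IR1, against 205, 249 and 266 in those of CR32027-IR2 and 111, 166 and 119.5 in those of OreR (-1.70 ± 0.40, adjusted p = 0.0311). It was not called when CR32027-IR1 replicate 1 or any CR32027-IR2 library was left out (0.0685 to 0.105) or with no filter on low values (0.0851).

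Hormone and cuticle genes held some of the largest differences. Ecdysone is the steroid that times moulting and metamorphosis. Of 16 genes of its synthesis, turnover and response tested 3 were lower and 0 higher (18.8% called, beside 17.4% of all genes), with a median of -0.06. ImpL2, itself ecdysone-inducible, was one. Cyp18a1, which encodes an enzyme that inactivates ecdysone, had 0.71, 0.902 and 0.731 RPKM in the libraries labelled CR32027-IR1, against 2.83, 3.89 and 3.95 in those of CR32027-IR2 and 0.878, 0.782 and 0.72 in those of OreR (log2 difference -1.35 ± 0.12, adjusted p = 0.00112). The cuticle gene Edg78E had 0.473, 0.416 and 0.473 RPKM in the libraries labelled CR32027-IR1, against 2.53, 2.47 and 2.26 in those of CR32027-IR2 and 0.453, 0.176 and 0.224 in those of OreR (log2 difference -1.23 ± 0.09, adjusted p = 0.000378). In both, CR32027-IR2 was the high group and the libraries labelled CR32027-IR1 were near OreR. Both averaged under 1 RPKM in the libraries labelled CR32027-IR1 and passed the level for testing through CR32027-IR2. The filter thus in part fixed the count of lower genes. There were 6 lower genes in place of 3 when CR32027-IR1 replicate 2 was left out.

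Of 125 structural cuticle protein genes only 18 reached the level for testing, and 4 of them were lower and 3 higher (38.9% called, beside 17.4% of all genes). Of these 7, 5 averaged under 1 RPKM in one hairpin genotype and passed the level for testing through the other, so the filter in part fixed this count. TwdlE, of the Tweedle family of cuticle proteins, had 8.73, 10.4 and 8.5 RPKM in the libraries labelled CR32027-IR1, against 32.3, 27.7 and 28.3 in those of CR32027-IR2 and 6.37, 4.49 and 4.63 in those of OreR (log2 difference -1.58 ± 0.09, adjusted p = 0.000162), with CR32027-IR2 far above the other genotypes. Cpr64Ac had 0.247 ± 0.0407 RPKM in the libraries labelled CR32027-IR1, 2.97 ± 0.766 in those of CR32027-IR2 and 0.604 ± 0.216 in those of OreR (-1.65, adjusted p = 0.000929). In the other direction, Cpr49Ag had 3.01, 6.01 and 3.39 RPKM in the libraries labelled CR32027-IR1, against 0.0785, 0.484 and 0.114 in those of CR32027-IR2 and 0.0563, 0 and 0.542 in those of OreR (log2 difference 2.04 ± 0.23, adjusted p = 0.00251), and the libraries labelled CR32027-IR1 stood alone. The remaining calls, named after their values were seen apart from Edg78E, were Cpr31A lower (-0.44, adjusted p = 0.0375) and Cpr57A (0.54, adjusted p = 0.0136) and Cpr67Fa2 (1.24, adjusted p = 0.0131) higher. Cpr31A was not called when CR32027-IR1 replicate 3 or any CR32027-IR2 library was left out (0.0715 to 0.128) or with no filter on low values (0.0836). Leaving out CR32027-IR2 replicate 2 ended the calls of Cpr57A (0.0588) and Cpr67Fa2 (0.0514), so that 1 gene of the list was higher, and leaving out CR32027-IR1 replicate 1 ended that of Cpr57A (0.0577).

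Genes that harden, colour or build cuticle had 3 lower and 1 higher of 8 tested (50% called, beside 17.4% of all genes). Dopa decarboxylase (Ddc), which makes dopamine for hardening and pigment, had 0.662, 0.898 and 1.71 RPKM in the libraries labelled CR32027-IR1, against 5.31, 5.58 and 4.58 in those of CR32027-IR2 and 0.319, 0.278 and 0.656 in those of OreR (log2 difference -1.59 ± 0.18, adjusted p = 0.00253). The chitin deacetylase gene serp had 21.4 ± 3.52 RPKM in the libraries labelled CR32027-IR1, 36.4 ± 2.52 in those of CR32027-IR2 and 16.6 ± 2.37 in those of OreR (log2 difference -0.75 ± 0.11, adjusted p = 0.00721). The chitinase gene Cht2 had 38.2 ± 2.9 RPKM in the libraries labelled CR32027-IR1, 52.2 ± 0.549 in those of CR32027-IR2 and 49.6 ± 1.27 in those of OreR (log2 difference -0.44 ± 0.06, adjusted p = 0.00568). In Ddc and serp CR32027-IR2 was the high group, whereas in Cht2 the libraries labelled CR32027-IR1 were below both other genotypes. The chitin synthesis gene mmy was higher (0.35, adjusted p = 0.0296), but not when CR32027-IR1 replicate 1 or any CR32027-IR2 library was left out (0.0593 to 0.109) or with no filter on low values (0.0663).

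**Figure D3:**
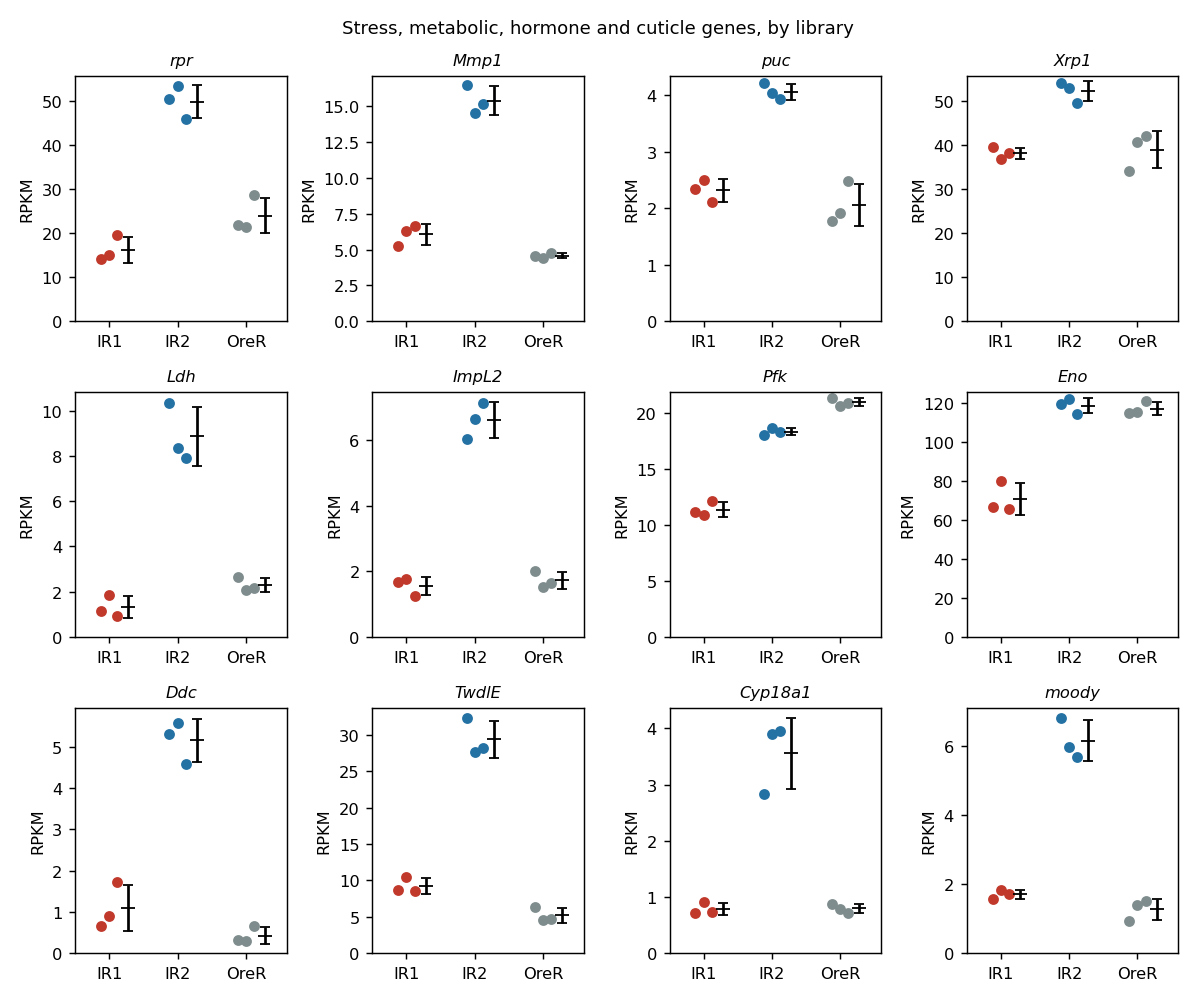
RPKM (vertical axes) in each library of 12 genes of stress, metabolism, hormone response, cuticle and glia, with CR32027-IR1 in red, CR32027-IR2 in blue and OreR in grey, and the mean with 1 SD beside each group. In all 12 the red points lie below the blue ones, and in 10 of them, all but Pfk and Eno, the blue points also lie above the grey.

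Among the Hedgehog genes, all 15 tested had differences between -0.34 and 0.55, and 5 were called lower and 3 higher (53.3% called, beside 17.4% of all genes). Of these, disp, which releases Hedgehog from the cells that make it, was called in every fit. It had 16.1, 18 and 16.3 RPKM in the libraries labelled CR32027-IR1, against 11.4, 10.8 and 11.2 in those of CR32027-IR2 and 17.5, 19.1 and 19.1 in those of OreR (log2 difference 0.55 ± 0.06, adjusted p = 0.00231), and CR32027-IR2 was below both other genotypes. The kinase gene fu (-0.34, adjusted p = 0.0132), the suppressor gene Su(fu) (-0.25, adjusted p = 0.0247) and the transducer gene smo (-0.20, adjusted p = 0.0375), the kinesin-like gene cos (-0.24, adjusted p = 0.0248) and the co-receptor gene boi (-0.24, adjusted p = 0.0302) were lower, of which smo, cos and boi were chosen after their values were seen. The secreted factor gene shf (0.22, adjusted p = 0.0217) and the transcription factor gene en (0.42, adjusted p = 0.0371), also chosen after its values were seen, were higher. Each of these 7 calls was lost in some fit that left out a library, and that of en also with no filter on low values (0.0861). When CR32027-IR1 replicate 1, CR32027-IR2 replicate 1 or CR32027-IR2 replicate 3 was left out, 0 genes of the list were lower, and 1 was when CR32027-IR2 replicate 2 was left out. The genes called higher numbered 1 to 3. The ligand gene hh (0.08, adjusted p = 0.602) and the receptor and target gene ptc (0.12, adjusted p = 0.564), both named after their values were seen, did not pass.

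In the Wingless list 1 of 17 genes was called (5.88%, beside 17.4% of all genes). It was wls, whose product carries Wingless to the cell surface for secretion. It had 44.5, 44.5 and 43.4 RPKM in the libraries labelled CR32027-IR1, against 58.6, 58.7 and 61 in those of CR32027-IR2 and 61.3, 62.8 and 63 in those of OreR (log2 difference -0.42 ± 0.04, adjusted p = 0.00209), and the libraries labelled CR32027-IR1 were below all others. There were 4 lower genes when CR32027-IR1 replicate 2 was left out. Among 13 proneural and Enhancer of split genes 3 were lower and 1 higher (30.8% called, beside 17.4% of all genes). The proneural gene ac, which gives cells the potential to form sensory bristles, had 11.6, 10.8 and 10.7 RPKM in the libraries labelled CR32027-IR1, against 17.7, 18.7 and 16 in those of CR32027-IR2 and 16.9, 15 and 15.5 in those of OreR (log2 difference -0.62 ± 0.07, adjusted p = 0.00253). Its neighbour sc was lower as well (-0.62, adjusted p = 0.0104), but not when CR32027-IR2 replicate 2 was left out (0.0502). E(spl)m4-BFM, a Notch-responsive gene of the Bearded family, had 10.9, 11 and 9.27 RPKM in the libraries labelled CR32027-IR1, against 22.4, 26.1 and 22.1 in those of CR32027-IR2 and 13.8, 17 and 19.9 in those of OreR (log2 difference -1.11 ± 0.09, adjusted p = 0.000712). The libraries labelled CR32027-IR1 were the lowest and those of CR32027-IR2 the highest, with OreR between. The Notch-responsive repressor gene E(spl)mdelta-HLH was higher (0.40, adjusted p = 0.0241) and held its call only when CR32027-IR1 replicate 2 was the library left out (otherwise 0.0517 to 0.0926), and not with no filter on low values (0.0569).

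The other patterning lists had 0% to 33.3% of their tested genes called, beside 17.4% of all genes. In the EGF receptor list 2 of 18 genes were higher and 0 lower, among them rl, the MAP kinase of the pathway, with 6.9, 7.4 and 7.58 RPKM in the libraries labelled CR32027-IR1, against 5.49, 5.48 and 4.87 in those of CR32027-IR2 and 4.76, 5.21 and 5.43 in those of OreR (log2 difference 0.40 ± 0.07, adjusted p = 0.0119). The other, kek1, a feedback inhibitor of the receptor (0.32, adjusted p = 0.0268), was not called when CR32027-IR1 replicate 1 (0.0951), CR32027-IR2 replicate 2 (0.101) or CR32027-IR2 replicate 3 (0.0959) was left out, or with no filter on low values (0.0539). In the Dpp list 2 of 15 were higher and 0 lower, namely the receptor gene sax (0.24, adjusted p = 0.042) and magu, which encodes a secreted modulator of Dpp (0.31, adjusted p = 0.0315). In the Notch list 1 of 13 was higher and 0 lower, which was the gamma-secretase gene aph-1 (0.22, adjusted p = 0.0299). When CR32027-IR1 replicate 1 or any CR32027-IR2 library was left out, neither of these lists had a gene called higher. With no filter on low values sax (0.0692) and magu (0.0657) were not called, and sax was also lost when values were centred on the median (0.0674), quantile normalized (0.0763) or fitted with no trend (0.053). In the JAK-STAT list 2 of 6 were lower, the transcription factor gene Stat92E (-0.31, adjusted p = 0.0101) and its target and inhibitor gene Socs36E (-0.30, adjusted p = 0.034). Of these, 1 was lower when CR32027-IR1 replicate 1, CR32027-IR2 replicate 1 or CR32027-IR2 replicate 3 was left out, and 0 when CR32027-IR2 replicate 2 was. Socs36E was also lost in the fit of all 9 libraries (0.125) and when low values were not filtered (0.0715). Of 12 wing pouch transcription factor genes, 10 of hinge and notum and 16 of the Hippo and Fat-Dachsous growth pathway, 0 were called, although 2 pouch genes were lower when CR32027-IR1 replicate 2 was left out and 1 Hippo gene higher when CR32027-IR1 replicate 3 was. Of the 12 pouch genes 10 had differences below 0, with a median of -0.12. In the hinge and notum list 8 were above 0, with a median of 0.04, and in the Hippo list 8 were above and 8 below 0. The pouch selector gene vg had 17.1, 16.9 and 16.8 RPKM in the libraries labelled CR32027-IR1, against 18.9, 18.8 and 17.4 in those of CR32027-IR2 and 17.8, 18.7 and 18.9 in those of OreR (-0.11, 95% interval -0.23 to 0.01). The pouch gene nub had 8.78 ± 0.322 RPKM in the libraries labelled CR32027-IR1, 9.67 ± 0.647 in those of CR32027-IR2 and 10.8 ± 0.479 in those of OreR (-0.12, 95% interval -0.28 to 0.03).

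**Figure D4:**
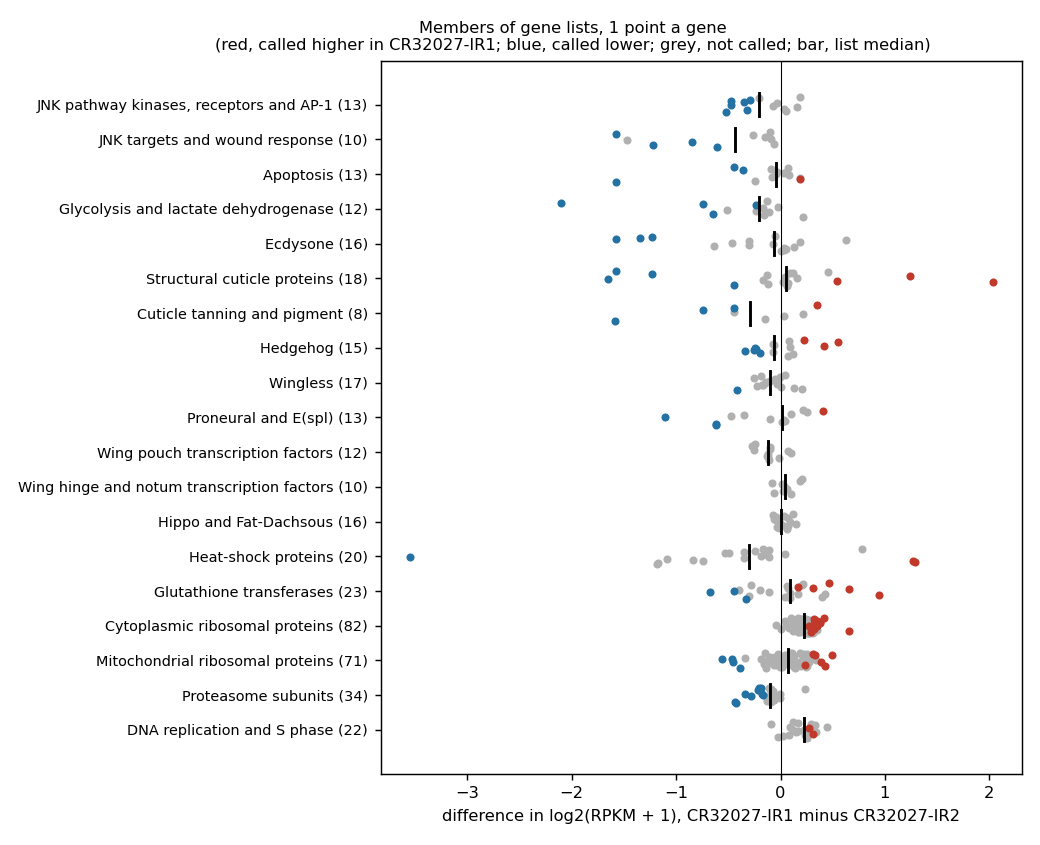
Difference in log2(RPKM + 1), CR32027-IR1 minus CR32027-IR2 (horizontal axis), of the tested members of 19 gene lists (rows, number tested in brackets), with genes called higher in red, called lower in blue, not called in grey, and the list's median as a black bar. All 10 JNK targets lie below 0, the ribosomal protein genes lie in a narrow band with a median of 0.22, and the pouch, hinge and Hippo lists have no called member.

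Genes of protein synthesis and breakdown had small differences of one sign. Of 82 cytoplasmic ribosomal protein genes tested, 81 had differences above 0, with a median of 0.22, and 13 were higher and 0 lower (15.9% called, beside 17.4% of all genes). Of 6758 protein-coding genes tested, 3870 had differences above 0. Over 88 genes of the list the summed level was 115311, 106763 and 132689 RPKM in the libraries labelled CR32027-IR1. It was 98122, 101193 and 103426 in those of CR32027-IR2 and 112062, 107131 and 100268 in those of OreR. With quantile normalization 64 were above 0, the median was 0.08, and 17 were higher and 1 lower. When CR32027-IR1 replicate 1 or any CR32027-IR2 library was left out, 1 was called higher, and leaving out CR32027-IR1 replicate 2 gave 45. With no filter on low values 2 were higher, and in the fit of all 9 libraries 28. The gene called in every such fit was RpL22-like, a paralog of a ribosomal protein gene, with 2.16, 2.32 and 2.53 RPKM in the libraries labelled CR32027-IR1, against 1.39, 1.06 and 0.936 in those of CR32027-IR2 and 2, 1.4 and 1.53 in those of OreR (log2 difference 0.65 ± 0.11, adjusted p = 0.0101). Of 34 proteasome genes tested, 33 had differences below 0, with a median of -0.10, and 9 were lower and 0 higher (26.5% called, beside 17.4% of all genes). With quantile normalization 31 were below 0, with a median of -0.05 and 8 lower. The count fell to 2 when CR32027-IR1 replicate 1, CR32027-IR2 replicate 1 or CR32027-IR2 replicate 2 was left out, to 3 when CR32027-IR2 replicate 3 was, and to 6 when CR32027-IR1 replicate 3 was. Called in every fit were the 20S subunit gene Prosalpha1, with 132 ± 6.58 RPKM in the libraries labelled CR32027-IR1, 177 ± 4.42 in those of CR32027-IR2 and 121 ± 10.6 in those of OreR (log2 difference -0.43 ± 0.05, adjusted p = 0.00395), and its near-identical copy Prosalpha1R, with which it can share reads.

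Of 71 mitochondrial ribosomal protein genes, 6 were higher and 4 lower (14.1% called, beside 17.4% of all genes). The genes mRpL50 (-0.46, adjusted p = 0.00448), mRpL37 (-0.45, adjusted p = 0.00823) and mRpL52 (-0.56, adjusted p = 0.00896) were lower and mRpL18 (0.43, adjusted p = 0.00614) was higher in every fit. Leaving out CR32027-IR1 replicate 2 gave 18 higher genes, and leaving out each other library gave 2 to 5. Of 62 respiratory chain and ATP synthase genes 4 were higher when CR32027-IR1 replicate 2 was left out and 5 lower when CR32027-IR1 replicate 3 was. With no library left out only ATPsynepsilonL, similar to a subunit of ATP synthase, was called (1.61%, beside 17.4% of all genes). It had 8.11 ± 1.2 RPKM in the libraries labelled CR32027-IR1, 4.55 ± 0.28 in those of CR32027-IR2 and 6.33 ± 0.393 in those of OreR (log2 difference 0.71 ± 0.10, adjusted p = 0.006). Among 30 aminoacyl-tRNA synthetase genes 2 were lower and 1 higher (10% called, beside 17.4% of all genes), and 1 of each was called in every fit. MetRS was lower, with 22 ± 0.731 RPKM in the libraries labelled CR32027-IR1, 31.2 ± 1.37 in those of CR32027-IR2 and 28.5 ± 0.667 in those of OreR (log2 difference -0.48 ± 0.05, adjusted p = 0.00249). The mitochondrial AsnRS-m was higher (0.39, adjusted p = 0.00458). The other lower one, ValRS (-0.25, adjusted p = 0.0392), was not called in some of these fits (largest adjusted p 0.128), nor with no filter on low values (0.0676) or with quantile normalization (0.0533). Of 13 vacuolar proton pump genes 3 were lower (23.1% called, beside 17.4% of all genes). Among them were Vha68-2 (-0.29, adjusted p = 0.0147) and VhaM9.7-c (-0.40, adjusted p = 0.0152), both lost when CR32027-IR1 replicate 1 or CR32027-IR2 replicate 2 was left out. Vha68-2 was also lost when CR32027-IR2 replicate 1 was left out (0.0637). The membrane subunit gene Vha16-1 was called in every fit (-0.37, adjusted p = 0.0058).

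The S phase and mitosis lists each had 9.09% of their tested genes called and the DNA repair list 16.7%, beside 17.4% of all genes. Of 22 S phase genes 20 had differences above 0, with a median of 0.23, and 2 were higher and 0 lower, namely Orc5 of the origin recognition complex (0.31, adjusted p = 0.0326) and the primase gene Prim1 (0.27, adjusted p = 0.043). Their summed level overlapped between the genotypes. It was 1153, 984 and 1255 RPKM in the libraries labelled CR32027-IR1, 920, 1034 and 971 in those of CR32027-IR2 and 915, 1052 and 974 in those of OreR. Leaving out CR32027-IR1 replicate 2 gave 13 higher genes, leaving out CR32027-IR1 replicate 3 gave 1, and leaving out each other library gave 0. With no filter on low values neither Orc5 (0.0665) nor Prim1 (0.0821) was called, and Prim1 was also lost with quantile normalization (0.0544). Of 22 genes of mitosis 1 was lower and 1 higher. The lower one was pav, a kinesin gene needed for cytokinesis, with 41, 36 and 36.3 RPKM in the libraries labelled CR32027-IR1, against 50.8, 59.2 and 57.7 in those of CR32027-IR2 and 48.4, 57 and 52.5 in those of OreR (log2 difference -0.55 ± 0.08, adjusted p = 0.00596). The higher one was the securin gene pim (0.51, adjusted p = 0.0126), which was not called when CR32027-IR1 replicate 1 (0.0521) or CR32027-IR2 replicate 3 (0.0543) was left out. The list had 6 higher genes when CR32027-IR1 replicate 2 was left out and 2 when CR32027-IR2 replicate 2 was. Of 18 DNA damage and repair genes 3 were higher and 0 lower. They included the checkpoint kinase gene lok (0.30, adjusted p = 0.039) and the DNA polymerase zeta gene PolZ1 (0.38, adjusted p = 0.0254), and rad50, of a complex that senses double-strand breaks, kept its call in every fit. It had 17.7, 18.5 and 18 RPKM in the libraries labelled CR32027-IR1, against 13.6, 13.7 and 13.6 in those of CR32027-IR2 and 14.7, 15.8 and 16.6 in those of OreR (log2 difference 0.38 ± 0.05, adjusted p = 0.00352). Leaving out CR32027-IR1 replicate 2 gave 5 higher genes, leaving out CR32027-IR1 replicate 3 gave 2, and leaving out each other library gave 1. With no filter on low values lok (0.0785) and PolZ1 (0.0602) were not called.

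Lists of autophagy, chromatin and nucleolar genes had 10% to 16.7% of their tested genes called, beside 17.4% of all genes, and each call named here was lost when CR32027-IR2 replicate 2 or 3 was left out (0.0512 to 0.155). With no filter on low values the calls of Atg3 (0.0657), Atg101 (0.0821), mof (0.0862) and Non1 (0.0809) were lost as well. Atg101 was also lost when values were centred on the median (0.0516) or quantile normalized (0.0608), and Atg3 (0.0555) and mof (0.0525) with no trend. Of 19 autophagy genes 3 were higher and 0 lower, and Atg8a, whose product marks autophagosomes, was one (0.19, adjusted p = 0.0281). The others were Atg3 (0.22, adjusted p = 0.0434) and Atg101 (0.30, adjusted p = 0.0408). Of 20 Polycomb and trithorax genes 2 were higher, esc, of the complex that methylates histone H3 (0.47, adjusted p = 0.0187), and the DNA-binding gene phol (0.22, adjusted p = 0.0268). Of 12 genes of dosage compensation and sex determination 2 were lower. These were msl-2, a subunit of the complex that raises transcription of the male X (-0.32, adjusted p = 0.0119), and the acetyltransferase gene mof of the same complex (-0.28, adjusted p = 0.0452). Of 13 genes of Myc and nucleolar growth, the RNA polymerase I factor gene Tif-IA was lower (-0.23, adjusted p = 0.0283) and Non1 was higher (0.45, adjusted p = 0.034).

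Stress-defence genes differed in both directions. Of 23 glutathione transferase genes, which attach glutathione to toxic compounds, 5 were higher and 3 lower (34.8% called, beside 17.4% of all genes). GstD9 had 23.6, 20.9 and 27.7 RPKM in the libraries labelled CR32027-IR1, against 11.5, 11.9 and 12.3 in those of CR32027-IR2 and 14.4, 20.3 and 18 in those of OreR (log2 difference 0.95 ± 0.10, adjusted p = 0.00203). GstO1 had 27.6 ± 0.471 RPKM in the libraries labelled CR32027-IR1, 17.3 ± 2.03 in those of CR32027-IR2 and 21.2 ± 1.05 in those of OreR (log2 difference 0.66 ± 0.08, adjusted p = 0.00407). GstZ1 was higher as well (0.46, adjusted p = 0.006). GstD1, the most abundant of those named, had 657 ± 20.4 RPKM in the libraries labelled CR32027-IR1, 827 ± 22.8 in those of CR32027-IR2 and 621 ± 33.2 in those of OreR and was lower (-0.33, adjusted p = 0.0119), but not when CR32027-IR1 replicate 1 (0.0676), CR32027-IR2 replicate 2 (0.0668) or CR32027-IR2 replicate 3 (0.0531) was left out. In those same fits 0 genes of the list were lower, leaving out CR32027-IR1 replicate 2 gave 10 higher, and leaving out CR32027-IR1 replicate 3 gave 5 lower. In the list of 7 innate immunity genes 1 was higher and 1 lower (28.6% called, beside 17.4% of all genes). The higher one was the adaptor gene imd, with 11.9, 10.8 and 11.2 RPKM in the libraries labelled CR32027-IR1, against 8.41, 7.49 and 7.34 in those of CR32027-IR2 and 8.64, 8.91 and 10.2 in those of OreR (log2 difference 0.49 ± 0.07, adjusted p = 0.00598). The lower one, the NF-kappaB factor gene Dif (-0.39, adjusted p = 0.0397), was called only when CR32027-IR1 replicate 3 was the library left out, and not with no filter on low values (0.0625).

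Heat-shock genes varied between libraries of one label. Of 20 tested 2 were higher and 1 lower (15% called, beside 17.4% of all genes), with a median of -0.30. Besides Hsp70Bb, the near-identical Hsp70Ba was higher (1.29, adjusted p = 0.0312), but not when CR32027-IR1 replicate 1 (0.0577), CR32027-IR2 replicate 2 (0.105) or CR32027-IR2 replicate 3 (0.105) was left out, or with no filter on low values (0.0851). Hsp68, named after its values were seen, had 28.2, 375 and 20.7 RPKM in the libraries labelled CR32027-IR1, against 143, 110.2 and 141 in those of CR32027-IR2 and 10.2, 30.9 and 21.3 in those of OreR. Hsp70Aa, also named after its values were seen, had 39.9, 286 and 37 RPKM in the libraries labelled CR32027-IR1, against 159, 162 and 201 in those of CR32027-IR2 and 38.9, 68.2 and 45.6 in those of OreR. In both, replicate 2 labelled CR32027-IR1 lay above every CR32027-IR2 library and the other replicates of its label lay below them all, and neither gene passed (adjusted p = 0.475 and 0.29). Copies of Hsp70 are near-identical and can share reads. Leaving that library out gave 11 lower heat-shock genes in place of 1. The lower gene in all libraries was Hsc70-2, described with its neighbour next.

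Some genes were present in one hairpin genotype and almost without reads in the other. They passed the level for testing through the genotype where they were present. The embryonic segmentation gene ftz had 531, 485 and 489 reads in the libraries labelled CR32027-IR1, against 1, 0 and 0 in CR32027-IR2 and 0 in every OreR library. CG43182, at 353067 to 353317 on the X in BDGP6, was the reverse, with 0, 0 and 1 reads in the libraries labelled CR32027-IR1, against 254, 267 and 225 in CR32027-IR2 and 0 in every OreR library. Each was thus seen in 1 hairpin genotype and not in OreR. The sugar taste receptor gene Gr64a had 0 reads in all libraries labelled CR32027-IR1 and all OreR libraries, and 287, 271 and 269 in CR32027-IR2. Against an assumed floor of 3 reads over the libraries labelled CR32027-IR1, Gr64a was 281-fold higher in CR32027-IR2 after scaling for depth. The 95% Poisson limits were 0 to 3.69 reads over the libraries labelled CR32027-IR1 and 772 to 885 over CR32027-IR2. The value of 281 is thus not a lower limit at that confidence. Reads cover counting error only, since they carry no molecular identifiers.

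Neighbours of Gr64a shared its pattern. On chromosome arm 3L from 4022700 to 4035703 (BDGP6), 6 adjacent genes were called lower in the libraries labelled CR32027-IR1. All 6 passed the level for testing through CR32027-IR2 alone, so lower was the only call open to them. CG11594 had 0, 0 and 1 reads in the libraries labelled CR32027-IR1, against 481, 320 and 380 in CR32027-IR2 and 2, 0 and 0 in the OreR libraries. Gr64d had 1, 0 and 0 reads, against 222, 217 and 236 in CR32027-IR2 and 0 in every OreR library. Gr64e shares most of the span of Gr64d, and Gr64b and Gr64c had identical values, so these pairs were not counted apart. Gr64f, which follows them and was named after its values were seen, was under the level for testing, with 0 reads over the libraries labelled CR32027-IR1, 172 over CR32027-IR2 and 1 over OreR. Mul1, which overlaps CG11594 on the other strand in BDGP6, had 4.38 ± 0.5 RPKM in the libraries labelled CR32027-IR1, 3.79 ± 0.21 in those of CR32027-IR2 and 4.16 ± 0.536 in those of OreR and did not pass (adjusted p = 0.233).

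A second cluster lay on chromosome arm 3R, from 29202660 to 29219667, where 4 genes were higher. The noncoding RNA CR31044 had 24.4, 23.6 and 22.8 RPKM in the libraries labelled CR32027-IR1, against 1.64, 1.99 and 1.8 in those of CR32027-IR2 and 2.01, 2.59 and 2.48 in those of OreR (log2 difference 3.13 ± 0.07, adjusted p = 1.05e-06). The microRNA genes mir-996 (3.38, adjusted p = 6.7e-05) and mir-279 (1.35, adjusted p = 0.0092) lie within CR31044 and can share its reads. Cyt-c1L, which encodes a protein similar to cytochrome c1, had 251, 196 and 250 reads in the libraries labelled CR32027-IR1, against 2, 5 and 1 in CR32027-IR2 and 1, 3 and 6 in the OreR libraries. In this cluster CR32027-IR2 and OreR were alike in being low. On the same arm from 13044759 to 13049294, the heat-shock cognate gene Hsc70-2 had 0, 1 and 0 reads in the libraries labelled CR32027-IR1, against 973, 824 and 771 in CR32027-IR2 and 701, 320 and 449 in the OreR libraries. Its neighbour CG31157 had 0, 2 and 1 reads, against 354, 296 and 319 in CR32027-IR2 and 276, 128 and 205 in the OreR libraries. By a grouping made after the data were seen, 28 of the 89 called genes with 2-fold differences and a known position lay within 20 kb of another one, in 10 clusters. The same share was not worked out for all genes tested, so this count is a description only. Some members overlap or can share reads, as given above, and in some clusters the members differed in direction.

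Single genes followed one or the other of these patterns. The antisense RNA CR43767, which passed the level for testing through CR32027-IR2, was low in the libraries labelled CR32027-IR1 and near OreR in CR32027-IR2. It had 0.126, 0.128 and 0.197 RPKM in the libraries labelled CR32027-IR1, against 14.4, 15.3 and 13.7 in those of CR32027-IR2 and 16, 14.1 and 14.2 in those of OreR (log2 difference -3.75 ± 0.08, adjusted p = 1.05e-06). CG18343 had the same pattern of levels, with 6.17 ± 0.31 RPKM in the libraries labelled CR32027-IR1, 31.2 ± 2.56 in those of CR32027-IR2 and 36 ± 6.83 in those of OreR (-2.16, adjusted p = 9.05e-06). The neprilysin-like gene Nepl3 also had this pattern, with 6.09 ± 0.916 RPKM in the libraries labelled CR32027-IR1, 24.9 ± 1.34 in those of CR32027-IR2 and 24.9 ± 1.05 in those of OreR (-1.88, adjusted p = 8.58e-05). SkpB, a Skp1-related gene next to CG18343 that was named after its values were seen, was higher (1.31, adjusted p = 0.00147). The odorant-binding protein gene Obp56a was high in the libraries labelled CR32027-IR1 and low in both other genotypes, with 11.9, 14 and 13.3 RPKM in the libraries labelled CR32027-IR1, against 1.6, 2.4 and 2.22 in those of CR32027-IR2 and 2.74, 1.67 and 2.4 in those of OreR (log2 difference 2.20 ± 0.11, adjusted p = 8.58e-05). High in CR32027-IR2 alone was CG17124, with 1.06 ± 0.442 RPKM in the libraries labelled CR32027-IR1, 6.47 ± 0.68 in those of CR32027-IR2 and 1.09 ± 0.0726 in those of OreR (-1.87, adjusted p = 0.000793). The lipid phosphatase gene wun2, named after its values were seen, was another, with 1.37 ± 0.26 RPKM in the libraries labelled CR32027-IR1, 5.49 ± 0.26 in those of CR32027-IR2 and 1.5 ± 0.254 in those of OreR (-1.46, adjusted p = 0.000336). Low in CR32027-IR2 alone was CG6912, with 381, 357 and 406 reads in the libraries labelled CR32027-IR1, against 9, 4 and 4 in CR32027-IR2 and 183, 161 and 304 in the OreR libraries. The hairpin RNA gene hpRNA:CR33940, a source of endogenous small interfering RNAs, had 17.8 ± 3 RPKM in the libraries labelled CR32027-IR1, 46.1 ± 6.59 in those of CR32027-IR2 and 36.5 ± 5.92 in those of OreR (log2 difference -1.32 ± 0.14, adjusted p = 0.00199). Of 12 genes of RNA interference and the microRNA machinery 0 were called, and 1 was higher when CR32027-IR1 replicate 3 was left out.

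**Figure D5:**
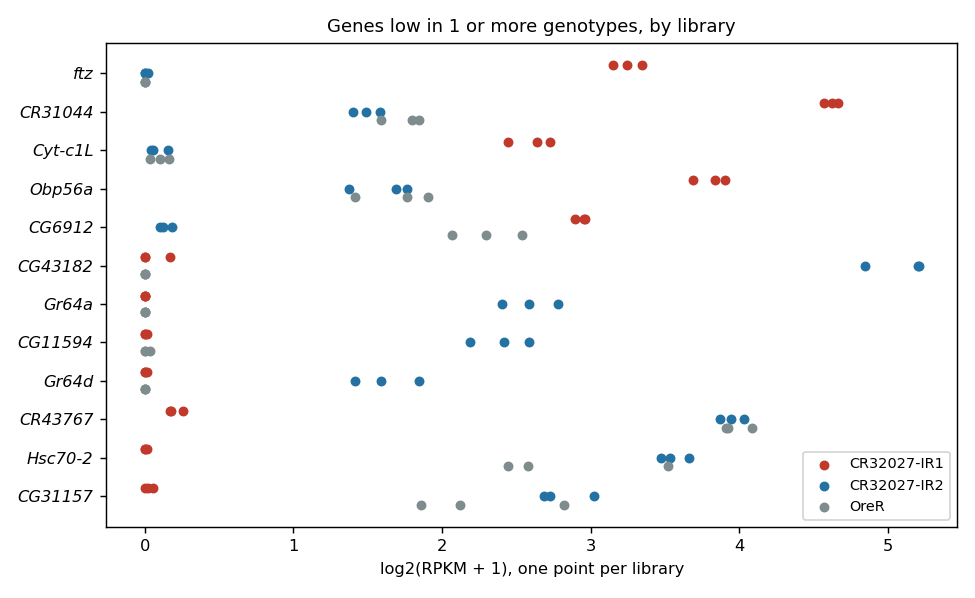
log2(RPKM + 1) in each library (horizontal axis, 1 point per library) of 12 genes that were low in 1 or more genotypes (rows), with CR32027-IR1 in red above CR32027-IR2 in blue and OreR in grey. The red points of ftz, CR31044, Cyt-c1L, Obp56a and CG6912 lie right of the blue ones, and for the other 7 genes they lie at or near 0.

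Small nucleolar RNAs, which guide the modification of ribosomal RNA, were counted after the data were seen. Of 133 tested, 28 were higher and 2 lower in the libraries labelled CR32027-IR1 (22.6% called, beside 17.4% of all genes), 104 had differences above 0, and the median was 0.46. They made up 14 of the 38 genes that were at least 2-fold higher. Some of the 14 lay within 20 kb of each other and were counted as separate genes. Whether their reads came from other transcripts that overlap them was not tested. With quantile normalization 101 were above 0. In the fits that left out 1 library 12 to 39 were higher, and 9 were called in every one. The libraries were poly(A) RNA, which these RNAs largely lack. The median level over the 133 was 3.70, 3.21 and 3.35 RPKM in the libraries labelled CR32027-IR1, against 2.74, 2.54 and 1.75 in CR32027-IR2 and 3.16, 3.63 and 3.20 in the OreR libraries. CR32027-IR2 was the low group, with its replicate 3 the lowest. That library also held the fewest reads (25070343). The reads behind these low levels are not given here, and 2-fold differences among them may rest on few reads. As an example, snoRNA:Me28S-G2703a, which guides methylation of 28S ribosomal RNA, had 6.5, 5.86 and 8.79 RPKM in the libraries labelled CR32027-IR1, against 2.41, 1.49 and 1.75 in those of CR32027-IR2 and 2.16, 8.84 and 7.04 in those of OreR (log2 difference 1.48 ± 0.16, adjusted p = 0.00249).

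Markers of other cells that a disc preparation can hold were compared last. The glial gene moody, which encodes a receptor of the blood-brain barrier, had 1.55, 1.83 and 1.7 RPKM in the libraries labelled CR32027-IR1, against 6.8, 5.97 and 5.67 in those of CR32027-IR2 and 0.924, 1.37 and 1.5 in those of OreR (log2 difference -1.41 ± 0.09, adjusted p = 0.000211), and CR32027-IR2 was the high group. The neuronal gene elav had 3.34 ± 0.14 RPKM in the libraries labelled CR32027-IR1, 3.4 ± 0.118 in those of CR32027-IR2 and 3.54 ± 0.151 in those of OreR and did not pass (adjusted p = 0.869). The gene repo, which defines glia, and the synaptic gene brp, both under the level for testing, averaged at most 0.0165 RPKM in each hairpin genotype. The claudin gene sinu of septate junctions, which epithelia and glia share, was higher (0.34, adjusted p = 0.00888). In its list of 17 genes 4 were higher and moody was lower (29.4% called, beside 17.4% of all genes). The count higher was 1 when any CR32027-IR2 library was left out. Haemocyte markers summed to 7.04, 1.63 and 10.5 RPKM over 6 genes in the libraries labelled CR32027-IR1, against 6.23, 3.93 and 3.57 in CR32027-IR2 and 8.58, 21.7 and 17.2 in the OreR libraries, and 0 of the 2 tested were called, while both were higher when CR32027-IR1 replicate 2 was left out. Fat body markers summed to 1.08 to 3.32 RPKM over 6 genes in the libraries labelled CR32027-IR1 and 0.66 to 3.88 in CR32027-IR2, and none reached the level for testing. Of muscle, tracheal and salivary gland markers 1, 2 and 1 were tested and 0 were called, and the 2 testis markers in the table summed to at most 0.22 RPKM in any hairpin library. The part of these markers in the differences above was not tested.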

How the data were processed

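Wing pouches gave 9 poly(A) RNA libraries, 3 a genotype, with groups taken from the labels. The authors deposited their values as RPKM in 1 table. The submitters' processing notes list CASAVA 1.8.2, TopHat2 and dm3, but no counter, annotation or filter. Symbols for 15002 of 15682 genes and all coordinates come from BDGP6, matched by identifier, with no conversion of coordinates.

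The step between low RPKM values, which is the worth of 1 read, gave the depth of each library. Whole reads (tolerance 0.01) came out for 7424 of the 7429 genes tested, or 99.9%. Among 4376 genes with introns, 79.2% had a length that matched the genomic span to 2%, and 0.64% one that matched the exons, so introns lower their RPKM.

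The test was limma 3.58.1 (R 4.3.3) with a trend, fitted to log2(RPKM + 1) of the 6 hairpin libraries, with Benjamini-Hochberg adjustment over all 7429 genes. It was first tested on simulated data. OreR was not tested, since both hairpin genotypes share it. Other steps used Python 3.11.15 with pandas 2.3.3, numpy 2.4.6, scipy 1.17.1 and matplotlib 3.10.9.

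Members, lists and the rule for naming genes were chosen with earlier results of these data known. Named were CR32027, its nearest genes, the transgene-linked genes, the 15 largest differences each way with libraries apart, genes at 0 throughout 1 genotype, and up to 4 genes of a list by p. The alternatives were other pseudocounts, filters, scalings and weights, no trend, all 9 libraries, a replicate block, voom on recovered reads, a stricter threshold, coding genes alone and each library left out.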

Additional observations from a re-analysis of the deposited data

How the results depend on the processing

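The difference of CR32027 was called in every alternative that gave it a value, with log2 differences of 1.07 to 2.16. A minimum of 5 RPKM and coding genes alone gave it none, since CR32027 is below that level and is not coding. Against 1294 called genes, array weights gave 2776 (1684 higher and 1092 lower in the libraries labelled CR32027-IR1) and an adjusted p under 0.01 gave 329 (129 higher and 200 lower). Leaving out 1 library gave 396 to 2006 called genes, 175 to 1231 higher and 220 to 775 lower. At a minimum of 5 RPKM the genes at least 2-fold apart numbered 40, against 93. Fitting all 9 libraries gave 1643 called genes (22.1% of those tested), of which 1255 were among the 1294. limma voom on the recovered reads gave 1318, of which 1184 were shared. Under the alternatives other than leaving out a library, the block and the stricter threshold, 1515 of 1565 values of the 147 named genes that were called kept their call and direction. Most losses came from the setting with no filter on low values, where 115 of the 147 stayed called and 1013 genes were called in all.

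Replicate numbers did not pair the libraries, as deviations of same-numbered libraries correlated at -0.0997, -0.124 and 0.00877. With a replicate block 374 genes were called, 164 higher and 210 lower, and 369 of them were among the 1294.

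Of the results with no call, 7 changed direction. With array weights the difference was 0.00297 for Dcr-2, 0.040 for trh and -0.030 for brk. Leaving out 1 library gave -0.16 to 0.15 for Cat, -0.16 to 0.057 for hth, -0.071 to 0.79 for PPO2 and -0.15 to 0.031 for vvl, and the cause was not tested. Depth limits genes with few reads, such as CR32027 in CR32027-IR2, whose lowest library had 18.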

Other observations

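Called genes outside the lists included several with no named function that followed the patterns above. CG3649 averaged 0.558 ± 0.0316 RPKM in the libraries labelled CR32027-IR1, 5.82 ± 0.626 in those of CR32027-IR2 and 8.5 ± 0.671 in those of OreR (limma, adjusted p = 3.48e-05). CG3649 passed the level for testing through CR32027-IR2. The noncoding RNA CR32368 was also low in the libraries labelled CR32027-IR1 alone (log2 difference -2.08, limma, adjusted p = 0.000211). CG6654 was high in those libraries alone, with 23.9 ± 2.45 RPKM, 8.62 ± 0.634 in those of CR32027-IR2 and 8.81 ± 0.484 in those of OreR (log2 difference 1.37, limma, adjusted p = 0.000261). The gene FBgn0041607, which has no annotation here, had 4.88 ± 1.08 RPKM in the libraries labelled CR32027-IR1, 19.6 ± 3.96 in those of CR32027-IR2 and 9.53 ± 1.26 in those of OreR (log2 difference -1.81, limma, adjusted p = 0.00138).

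A single library held nearly all reads of a pair of eggshell genes. CR32027-IR2 replicate 1 had 138 reads of Vm26Ab and 165 of Vm34Ca, which encode proteins of the vitelline membrane. Every other hairpin library had at most 1 read of each, and neither gene was called (limma, adjusted p = 0.372 and 0.368).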
